A study of Mus musculus with 3 samples.

Results

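The regions described here are stretches of the mouse genome that an antibody against 5-hydroxymethylcytosine (5hmC) enriched and whose midpoint lies in a 3' untranslated region (3' UTR). Peaks of 3 immunoprecipitations were merged where they overlapped by at least 1 bp on chromosomes 1 to 19. A merged region was kept when its midpoint lay downstream of the stop codon of a protein-coding transcript in GENCODE M39, in no coding sequence, and more than 1 kb from every protein-coding start. The rule uses positions only, and 427 of the 13285 merged regions met it. They lie in 394 protein-coding genes, and 7 of them lie in the 3' UTRs of 2 genes.

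The DNA came from the cerebellum of a C57Bl6Cr female of 8 weeks. It was immunoprecipitated in 3 reactions and sequenced unamplified on nanopore flow cells, so that the same reads give the enrichment and the state of each CpG (hMeDIP-seq). Replicate 1 was made with whole serum α-5hmC antibody and replicates 2 and 3 with IgG-purified α-5hmC antibody, and untreated DNA of the same sample served as the control for peak calling. The library names point to a single mouse, and the spread among the 3 reactions is therefore technical and does not cover differences between animals. Antibody cannot be told apart from the other ways in which replicate 1 differs. The tissue label could not be checked against marker genes, because DNA and not RNA was measured.

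5hmC is made from 5-methylcytosine (5mC) by the TET dioxygenases, either as a step towards removal of the methyl mark or as a lasting mark of its own. It is abundant in neurons, where it lies mostly in the bodies of genes. The 3' UTR is the part of a messenger RNA after the stop codon. It carries binding sites for microRNAs and RNA-binding proteins and the signal for cleavage and polyadenylation, and in neurons it is often long. In DNA it is the tail of the gene body, and most 3' UTRs lie within a single exon.

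The CpG with the most 5hmC calls is shown for the regions on which the single-region results turn, as 30 bases of the forward strand of GRCm39 with the CpG in capitals. Since the CpG was picked by its 5hmC calls, its own count is a description. The first group lists regions with peaks in 2 or 3 replicates and a high fold enrichment. Regions whose CpG fell in coding sequence or outside the 3' UTR are not shown.
Srebf2, chr15:82091928-82091957: tggccgcagcaacaCGcgcctcacctgtag
Nfasc, chr1:132496386-132496415: ctctgcggtttaaaCGtatggcaaatgatg
Zfand3, chr17:30427486-30427515: gtcagtaaaggaggCGcgggcctcgacgcc
Pacsin1, chr17:27929936-27929965: gtgaaactccgagaCGtgccgtggtctcag
Kcnc1, chr7:46086502-46086531: ctgctaggctggtcCGctgcatgggaaaca
Nfix, chr8:85433658-85433687: ccgcctcgcagcccCGagctccctgctagc
The second group comes from regions with a high 5hmC share and a peak in 1 replicate.
Klf9, chr19:23143388-23143417: ctggctctctgtagCGttggttgataaatg
Rxra, chr2:27652219-27652248: ctgcccactgacgaCGggagatgcggcaca
The third group comes from regions with a low 5hmC share.
Trub1, chr19:57461476-57461505: gctcagtacattctCGagcagactggacac
Nfix, chr8:85432153-85432182: gtgggggtgtgtgcCGggctatgtgcgtgc
Gins2, chr8:121305680-121305709: gcttgctgttgctgCGgccctggggtttaa
Mier2, chr10:79376809-79376838: gcctggggctgtggCGgtgctggacgctga
Shank3, chr15:89442513-89442542: tggatggcagctgaCGccccactccctctc
The Klf9 CpG was called 5hmC in 4 of 5 reads, all from replicate 2. The Rxra CpG was called 5hmC in 4 of 5 reads, 3 of them from replicate 3. In the Srebf2 window 3 of 6 reads were 5hmC, and in the low group no CpG shown had more than 2 5hmC calls. Calls per CpG were few throughout, and the most calls at any CpG of the 427 regions were 4, 5 and 4 in replicates 1, 2 and 3.

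The 3' UTR took a larger share of the enriched regions than of the genome. Of each replicate's peaks on chromosomes 1 to 19, 20 of 490, 281 of 8506 and 160 of 5146 (replicates 1, 2 and 3) belonged to 3' UTR regions. These are 4.08%, 3.30% and 3.11% of the peaks, or 3.50% ± 0.515 (SD, n = 3), and 3.21% of the merged regions. The bases at which a midpoint would meet the same rule add up to 43.1 Mb, or 1.80% of the sequenced bases of these chromosomes. The share of regions was thus 1.79 times the share of bases, and no test was made of this ratio. The eligible bases held 1.01 CpGs per 100 bp and the genome 0.851. Coding exons held 902 merged regions and introns 7913. Their shares of the bases are not given here, so the ratio is not compared with other parts of genes.

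Few of the 427 regions were found in more than 1 reaction. A peak was called in replicate 2 alone for 249 regions, in replicate 3 alone for 133 and in replicate 1 alone for 12. Peaks of 2 or 3 replicates coincided in 33 regions (7.73%), beside 5.97% of all merged regions, 11% of coding exon regions and 5.13% of intron regions. Replicates 2 and 3 shared 26 regions, which are 9.25% of the 281 of replicate 2 and 16.2% of the 160 of replicate 3. Over all merged regions these shares were 7.95% and 13.2%. Of the 20 regions of replicate 1, 7 (35.0%) had a peak in replicate 2 and 2 (10.0%) in replicate 3. Among all 490 merged regions of replicate 1 the shares were 27.55% with replicate 2 and 17.96% with replicate 3. The 3' UTR share was thus higher for replicate 2 and lower for replicate 3. Without replicate 2 the number of 3' UTR regions was 175, of which 0.571% had a peak in both other replicates, and without replicate 3 the share with 2 peaks was 2.37%.

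The height of a peak is given as fold enrichment, the read pileup at the summit plus 1 over the local background plus 1. Over the 3' UTR peaks of replicates 1, 2 and 3 its medians were 4.72, 3.81 and 3.87. In intron regions it was 4.72, 3.81 and 3.86, so the median heights were nearly the same within each replicate. Coding exon peaks had medians of 4.90, 3.83 and 3.87, a mean difference (3' UTR minus coding exon) of −0.06 ± 0.0987 (SD, n = 3), which was smaller than its spread. The exact two-sided sign-flip permutation test over the 3 replicates gave p = 0.25, which is the smallest p that 3 replicates allow, so no such comparison here can pass a threshold of 0.05. The fold enrichments lay on steps, and with the background taken from the most common fold of each list, a 3' UTR peak held a median of 4 reads at its summit in replicate 1 and 3 reads in replicates 2 and 3. Peaks of at most 3 reads made up 35.0%, 82.2% and 85.0% of the 3' UTR peaks of replicates 1, 2 and 3, beside 26.3%, 81.1% and 82.2% of all peaks.

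Srebf2, the transcription factor that switches on the genes of cholesterol synthesis, held the only 3' UTR region with a peak in all 3 replicates. It spans 1568 bp at chr15:82091365-82092932 with 81 CpGs, and crosses the stop codon of the transcript that places it. That transcript is not the Ensembl canonical one, whose span does not include the midpoint. Of the bases of the region 29.9% are coding. Fold enrichments were 4.70, 5.74 and 5.81 in replicates 1, 2 and 3, and averaged 5.42 ± 0.623 (SD, n = 3). Its CpGs were read as 5hmC in 18 of 108, 21 of 50 and 10 of 49 calls of replicates 1, 2 and 3. Summed over replicates, 54.1% of its calls were unmodified, 23.7% were 5hmC (95% exact binomial interval 18.1 to 30.1%) and 22.2% were 5mC. Replicate 2 stood above the other two, and the summed 5hmC share was 17.8% without it and 31.3% without replicate 1. Here and below, intervals cover counting error only, since calls along 1 read are not independent.

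The 8 regions with peaks in exactly 2 replicates and the highest mean fold enrichment lay in Nfasc, Trib1, Zfand3, Map3k4, Pacsin1, Kcnc1, Nfix and Extl2. Neurofascin (Nfasc), an adhesion molecule of the axon initial segment and the node of Ranvier, had folds of 5.67 in replicate 1 and 4.79 in replicate 2. Its region lies wholly in the 3' UTR, 1508 bases past the stop codon, and 17 of 30 calls in replicate 1 and 13 of 28 in replicate 2 were 5hmC. These 56.7% and 46.4% lay close to each other, and replicate 3 had no call there.
Zfand3 had folds of 4.79 in replicate 2 and 4.84 in replicate 3, and 12 of 26, 13 of 31 and 9 of 14 calls were 5hmC in replicates 1, 2 and 3. These shares were 46.2%, 41.9% and 64.3%, and replicate 1 had no peak there. Extl2, which encodes a glycosyltransferase of heparan sulfate synthesis, had folds of 2.87 in replicate 2 and 5.81 in replicate 3. Its 5hmC shares of 38.5% (26 calls), 41.9% (31 calls) and 43.3% (60 calls) lay close to each other. The region crosses the stop codon, and 46.0% of its bases are coding.
Kcnc1 encodes Kv3.1, a potassium channel of fast-spiking neurons. Its folds were 5.74 in replicate 2 and 3.87 in replicate 3, and 5 of 20, 17 of 45 and 2 of 13 calls were 5hmC in replicates 1, 2 and 3. Pacsin1, which bends membranes in synaptic vesicle recycling, had the same folds to 2 decimals, with 3 of 4, 6 of 27 and 4 of 15 calls as 5hmC. Trib1, a Tribbles pseudokinase, had 5 of 22 and 11 of 24 in replicates 2 and 3. Its region crosses the stop codon, and 43.3% of its bases are coding. Map3k4, a kinase at the head of stress-activated MAP kinase cascades, had 5 of 22, 18 of 66 and 1 of 20 in replicates 1, 2 and 3. Of the bases of the Map3k4 region 25.5% are annotated as 3' UTR, and of those of the Kcnc1 region 27.4%.
Nfix, a nuclear factor I transcription factor of the developing granule cell, had 2 regions, each with peaks in replicates 2 and 3. In the upstream one (folds of 4.77 and 4.83) 2 of 19, 22 of 86 and 3 of 29 calls were 5hmC in replicates 1, 2 and 3. In the downstream one (folds of 3.83 and 3.87) these were 5 of 44, 3 of 62 and 2 of 24. The downstream region held 7.21 CpGs per 100 bp and 76.2% of its calls were unmodified.
The remaining 24 of the 33 regions with more than 1 peak had mean folds of 2.89 to 4.33. Over all 33, the median length was 651 bp and the median CpG density 3.18 per 100 bp, beside 304 bp and 1.98 per 100 bp in the 394 regions with 1 peak. Merging itself lengthens a region with several peaks.

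The 5 regions with a peak in 1 replicate and the highest fold lay in Tapt1 (6.70, replicate 2), Klf9 (6.18, replicate 2), Zmynd8 (5.81, replicate 3), Septin8 and Sh3bgrl2 (both 5.74, replicate 2). The last places were tied, since Apoa1 (6 of 21 calls 5hmC) and Ttyh2 (0 of 5) had the same fold in replicate 2. Of these, Klf9, a Krüppel-like transcription factor, had 26 of 45 calls as 5hmC, and Zmynd8, a reader of histone marks, had 8 of 47 in replicate 3. High folds thus stood beside both high and low shares of 5hmC. Peaks of 4 or more reads had a higher 5hmC share than peaks of at most 3 reads within each replicate, but by little. The shares were 24.4% against 20.9% in replicate 1, 29.8% against 27.7% in replicate 2 and 31.3% against 27.9% in replicate 3, and the intervals of each pair overlapped.

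Most of the region midpoints lay nearer to the stop codon than to the end of the transcript. The midpoint was a median of 752 bases past the stop codon (quartiles 249.5 and 1698). It was in the last exon of the 3' UTR in 426 of 427 regions, a count largely set by most 3' UTRs having a single exon. Divided into 5 equal parts from the stop codon, the 3' UTRs held 119, 92, 77, 76 and 63 midpoints. The regions in these parts had median CpG densities of 2.32, 2.14, 1.72, 1.98 and 1.97 per 100 bp. How all eligible bases fall into such parts was not determined. The stop codon lay within the region in 89 cases and the end of the transcript in 48. The canonical transcript of the gene placed 287 regions (67.2%) in its own 3' UTR. For the other 140, which are in the 3' UTR of another transcript only, the midpoint lay in an intron of the canonical transcript in 110 and outside its span in 30. Of all bases of the 427 regions, 86.4% were 3' UTR and 7.38% coding. The 3' UTRs hit were long, with a median of 2775 bases over the 287 canonical cases against 1114 over 19668 canonical protein-coding transcripts. A longer 3' UTR offers more bases at which a midpoint can fall.

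**Figure D1:**
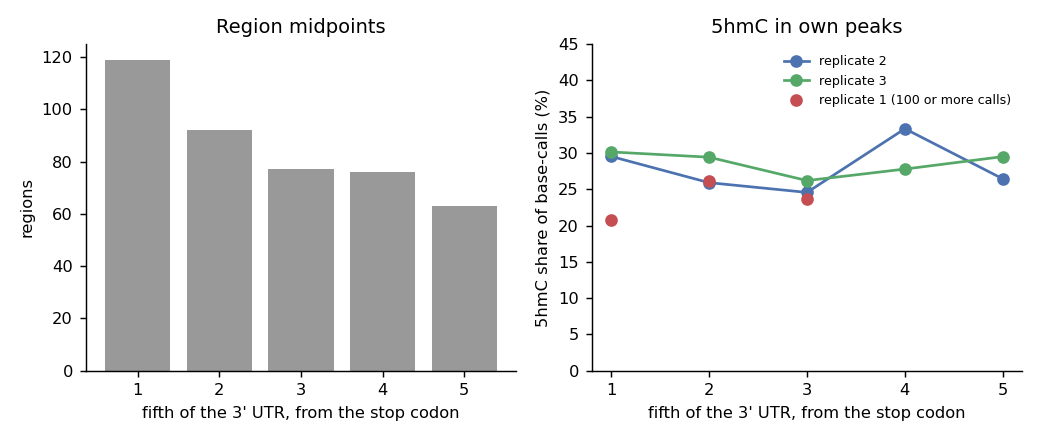
Left, number of 3' UTR regions by the part of the 3' UTR that holds their midpoint, from the stop codon (1) to the transcript end (5). Right, 5hmC share of base-calls (%) in the replicates' own peaks in the same parts, with replicate 1 drawn where it had at least 100 calls. The number falls from 119 to 63, while the share in replicates 2 and 3 stays between 24.6% and 33.3%.

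The 5hmC share showed no such gradient. In the plot by position it was 29.5%, 25.9%, 24.6%, 33.3% and 26.4% from the first to the last part in replicate 2, and 30.1%, 29.4%, 26.2%, 27.8% and 29.5% in replicate 3. Taken as 2 parts split at the middle, the part near the stop codon had shares of 23.6%, 27.2% and 29.5% in replicates 1, 2 and 3, and the part near the end 24.2%, 30.8% and 28.2%. The mean difference (stop codon part minus end part) was −0.96 ± 2.48 percentage points (SD, n = 3, two-sided exact sign-flip permutation test, p = 0.75). Regions in the 3' UTR of the canonical transcript had shares of 25.5%, 28.3% and 28.3%, and those of other transcripts only 19.4%, 28.8% and 30.3%, which differed by 1.21 ± 4.30 (SD, n = 3, same exact test, p = 1.0). Both differences were smaller than their spread.

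The 3' UTR regions held more CpG than the eligible 3' UTR bases, as all merged regions held more than the genome. Their median density was 1.99 CpGs per 100 bp (quartiles 1.41 and 2.66), whereas all bases eligible under the rule held 1.01 per 100 bp. The median of all merged regions was 1.77, and the genome held 0.851. Medians over regions are here set beside densities over all bases. Intron regions had a median of 1.66 and coding exon regions 3.13, so the 3' UTR regions lay between them. The same order held for GC content, with medians of 48.3%, 51.3% and 57.3% in intron, 3' UTR and coding exon regions. Of the 427 regions, 1 held no CpG.

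The state of the CpGs was compared between 3' UTR, coding exon and intron regions within each replicate, over the CpGs in that replicate's own peaks. In 3' UTR regions 23.7% of 439, 28.4% of 3253 and 28.9% of 1558 calls of replicates 1, 2 and 3 were 5hmC, which averaged 27.0% ± 2.89 (SD, n = 3). The 95% exact binomial intervals were 19.8 to 28.0%, 26.9 to 30% and 26.7 to 31.3%. The most frequent state was 5mC in replicates 2 and 3, with 42.6% and 40.4%, but unmodified C in replicate 1, where 5mC was 31.2% and unmodified C 45.1%. Replicate 1 stands on 20 peaks, and 39.9% of its calls lie in those of Rtn4r and Slc12a5. Without these regions, which were chosen after seeing the data for having most calls in that replicate, its shares were 28.0% 5hmC, 34.5% 5mC and 37.5% unmodified C (264 calls), and the mean 5hmC share of the 3 replicates was 28.5% ± 0.468 (SD, n = 3). The antibody chose these molecules for 5hmC, so the shares describe the enriched DNA and not the cerebellum as a whole. In bulk DNA, fewer cells with 5hmC and less 5hmC per cell cannot be told apart.

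**Figure D2:**
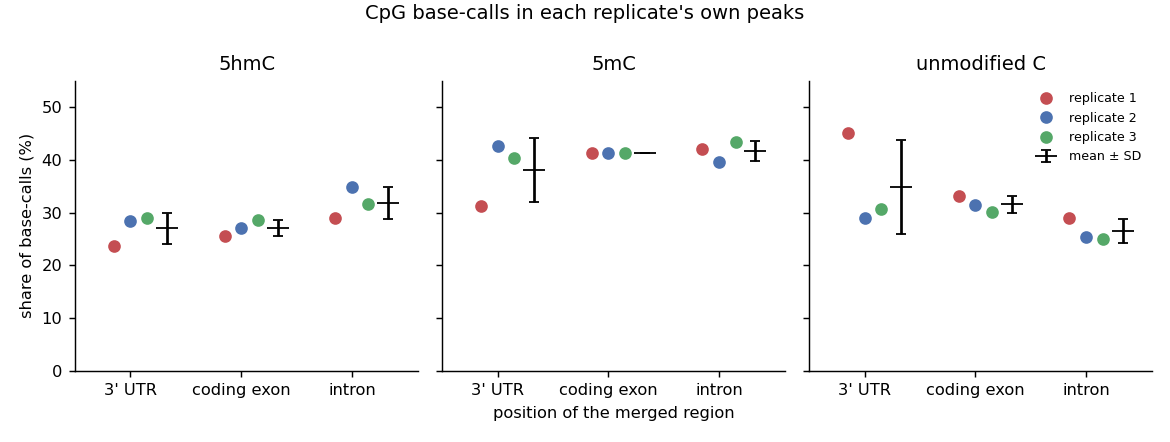
Share of CpG base-calls (%) called 5hmC, 5mC or unmodified C in 3' UTR, coding exon and intron regions, over CpGs in each replicate's own peaks. Points are the 3 replicates and bars the mean ± SD. In 3' UTR regions 5hmC lay at 23.7 to 28.9%, below the intron value of the same replicate in all 3 replicates.

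The 5hmC share in 3' UTRs was close to that in coding exons and below that in introns. Coding exon regions had 25.5%, 27.2% and 28.6% 5hmC, and the difference (3' UTR minus coding exon) was −0.07 ± 1.57 percentage points (SD, n = 3, two-sided exact sign-flip permutation test, p = 1.0). Its sign was positive in 2 of 3 replicates, and the mean became 0.81 without replicate 1. Intron regions had 28.9%, 34.9% and 31.7% 5hmC, and the difference (3' UTR minus intron) was −4.83 ± 1.92 (SD, n = 3, same exact test, p = 0.25, the smallest it can give). The 3' UTR was lower in 3 of 3 replicates. The share of unmodified C was higher than in introns in 3 of 3 replicates, by 8.41 ± 6.68 points (SD, n = 3, exact test, p = 0.25), while 5mC was higher in 1 of 3 and differed by −3.58 ± 6.93 (exact test, p = 0.75). Over sites with at least 3 calls the 5hmC difference from introns was −1.10, and without merged regions in which a CpG had 20 or more calls, none of which is a 3' UTR region, it was −7.02. Without the Rtn4r and Slc12a5 regions it was −3.30 ± 2.74, and the difference from coding exons was 1.46 ± 1.06 (SD, n = 3). Counted per kb of peak instead, 5hmC calls gave another order. Such a count also depends on CpG density, with medians of 3.13, 1.99 and 1.66 per 100 bp in coding exon, 3' UTR and intron regions. The 3' UTR regions held 10.5, 7.05 and 7.89 5hmC calls per kb in replicates 1, 2 and 3, coding exon regions 17.9, 10.8 and 13, and intron regions 10.8, 6.36 and 7.40. The 3' UTR was below coding exons in 3 of 3 replicates, by a difference of −5.43 ± 1.85 (SD, n = 3, exact test, p = 0.25), and above introns in 2 of 3, by 0.296 ± 0.514 (exact test, p = 0.5).

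The lower 5hmC share than in introns was also present within the same genes. The 253 3' UTR regions of 220 genes that also held intron regions had 21.4%, 29.6% and 26.7% 5hmC in replicates 1, 2 and 3. These 3' UTR shares rest on 294, 2093 and 969 calls. The 998 intron regions of these genes had 35.7%, 36.0% and 36.7%, beside 28.9%, 34.9% and 31.7% in all intron regions. CpG density was not matched here. The mean difference (3' UTR minus intron) was −10.2 ± 3.95 percentage points (SD, n = 3), lower in 3 of 3 replicates (two-sided exact sign-flip permutation test, p = 0.25). In the 59 genes with coding exon regions, the 3' UTR regions had 36.5%, 30.6% and 25.2% and the coding exon regions 29.2%, 32.2% and 30.1%, a difference of 0.28 ± 6.31 (SD, n = 3, same exact test, p = 1.0). In replicate 1 this last pair rests on 126 and 113 calls.

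CpG density moved with the 5hmC share. The 155 3' UTR regions with the fewest CpGs, up to 1.66 per 100 bp, had 39.3% (28 calls), 34.1% (455 calls) and 32.2% (233 calls) 5hmC in replicates 1, 2 and 3. The 142 regions with the most, above 2.51 per 100 bp, had 22.1% (335 calls), 25.5% (1849 calls) and 27.0% (942 calls). The mean difference (most minus fewest) was −10.3 ± 6.17 percentage points (SD, n = 3), lower in 3 of 3 replicates (two-sided exact sign-flip permutation test, p = 0.25). The same direction was seen in introns, with 32.4%, 38.6% and 38.4% at low and 25.7%, 30.3% and 25.3% at high density. Within bands of like CpG density, set after seeing the data, the difference from introns was −1.28 ± 7.09 at low, −5.43 ± 2.92 at middle and −2.24 ± 3.41 at high density (SD, n = 3). At high density replicate 3 had 27.0% 5hmC in 3' UTRs and 25.3% in introns, so that the order of the other replicates was not met there. Nor was it met in replicate 1 without Rtn4r and Slc12a5, with 27.5% of 160 calls in 3' UTRs and 25.7% in introns. The mean difference at high density was then −0.35 ± 3.61 (SD, n = 3), and 3' UTRs were higher in 2 of 3 replicates. At low density replicate 1, with 28 calls, had 39.3% in 3' UTRs and 32.4% in introns.

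**Figure D3:**
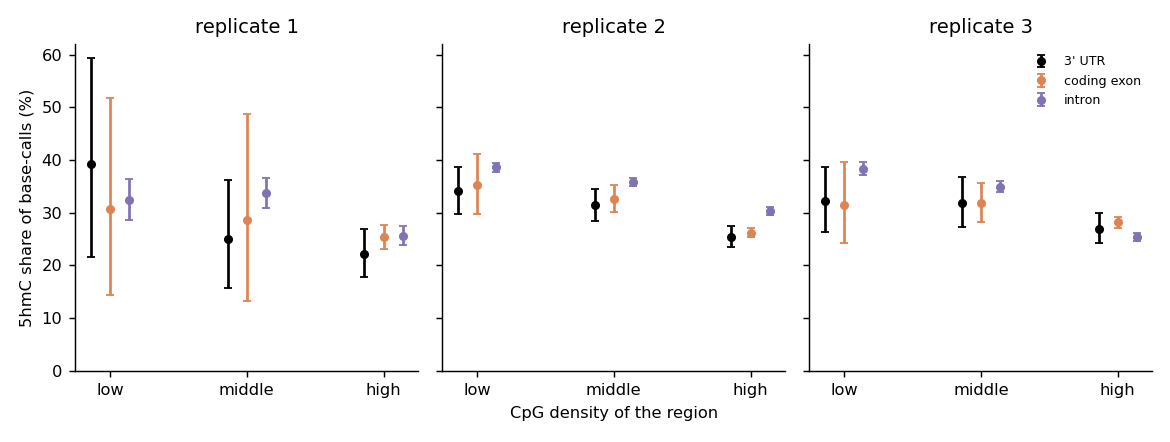
5hmC share of base-calls (%) in the replicates' own peaks, in regions of low, middle and high CpG density (limits 1.66 and 2.51 CpGs per 100 bp), with 1 panel per replicate. Bars are 95% exact binomial intervals. In replicates 2 and 3 the 3' UTR points fall from 34.1% and 32.2% at low density to 25.5% and 27.0% at high density.

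Single regions differed widely in their 5hmC share. With calls summed over replicates, 225 of the 427 regions (52.7%) had at least 10 calls. Their median share was 29.4% (quartiles 18.2 and 40.0%), between the medians of coding exon regions (27.3%) and intron regions (35.5%). 5mC was the most frequent state in 111 (49.3%) of the 225, beside 42.6% of all merged regions with 10 or more calls. Unmodified C was most frequent in 56 (24.9%, beside 23.0%), and 5hmC in 45 (20%, beside 26.1%). In introns 5hmC was most frequent in 31.2% of such regions and in coding exons in 15.4%. No 5hmC call was made in 5 of the 225 (2.22%, beside 2.74%). Of all 427 regions, 22 had no call of any kind.

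**Figure D4:**
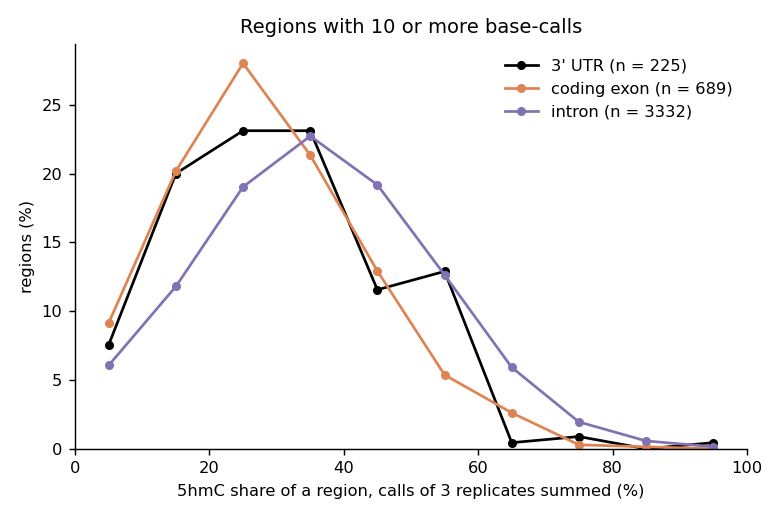
Percent of regions in each bin of 10 percentage points of the 5hmC share, for 3' UTR, coding exon and intron regions with at least 10 base-calls summed over the 3 replicates. Of the 225 3' UTR regions, 52 had a share of 20 to 30%, 52 of 30 to 40% and 4 of 60% or more, while introns have a longer right side.

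The regions at the ends of this range were named among those with at least 30 calls. The highest 5hmC share was that of Klf9, at 57.8% of 45 calls (interval 42.2 to 72.3%), all from replicate 2. It was followed by Nfasc (51.7% of 58 calls) and Zfand3 (47.9% of 71). Next came Fem1c, which encodes a substrate receptor of a cullin ubiquitin ligase, with 7 of 21 calls in replicate 2 and 12 of 18 in replicate 3. Rab43, a small GTPase of vesicle traffic, had 5 of 12 in replicate 2 and 14 of 29 in replicate 3. Of the bases of its region 37.2% are coding. Rxra, the retinoid X receptor that pairs with other nuclear receptors, had 7 of 16 in replicate 2 and 12 of 29 in replicate 3. The intervals of all 6 overlapped, so their order is not resolved. Chosen after its values were seen, Ank1 had the highest share of the 225, with 11 of its 12 calls as 5hmC.

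At the low end, Trub1, a pseudouridine synthase, had 1 of 19 calls as 5hmC in replicate 1 and 2 of 32 in replicate 2, or 5.88% together (interval 1.23 to 16.2%). Most of the other calls in Trub1, 68.6% of all, were 5mC. The downstream Nfix region followed with 7.69% of 130 calls (interval 3.75 to 13.7%). Gins2, a subunit of a complex that acts at replication forks, had 0 of 10 calls in replicate 2, which allows a share of up to 30%, and 6 of 55 in replicate 3. Its region also overlaps an exon of Gse1 on the other strand. In all, 18 of the 427 regions overlap an exon on the opposite strand. Mier2 had 0 of 13 in replicate 1, which allows up to 23.1%, and 4 of 28 in replicate 3. Shank3, a scaffold of the postsynaptic density, had 2 of 11 in replicate 1 and 4 of 46 in replicate 2. Unlike Trub1, the downstream Nfix, the Mier2 and the Shank3 regions were mostly unmodified, with 76.2%, 87.8% and 71.9% of calls. The region with the most calls of all, 226, lies in Slc12a5, the neuronal potassium-chloride cotransporter, and was chosen after its values were seen. It had 13.7% 5hmC and 53.5% unmodified C, at 8.41 CpGs per 100 bp.

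**Figure D5:**
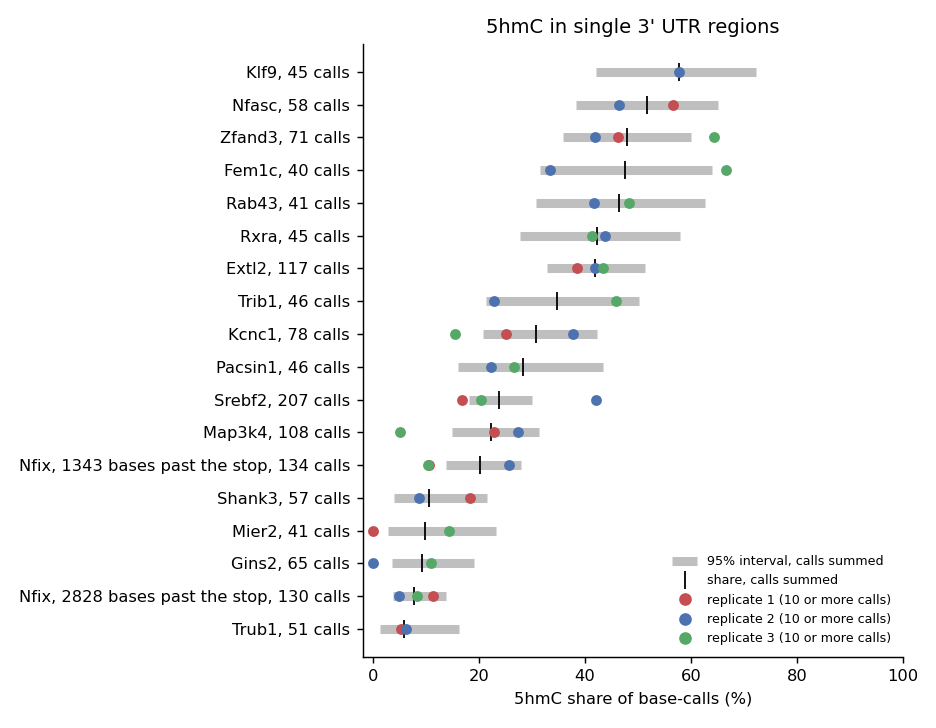
5hmC share of base-calls (%) in the 3' UTR regions with peaks in all replicates, with peaks in 2 replicates and the highest fold, and with the highest or lowest share. Black marks and grey bars are the share and 95% exact binomial interval of the summed calls, and points are replicates with at least 10 calls. Klf9 (interval 42.2 to 72.3%) stands at the high end, and Trub1, the downstream Nfix region, Gins2, Mier2 and Shank3, whose intervals end at 23.1% or lower, at the low end. They were chosen as the ends of the range, so that their distance describes the choice and is no test.

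Replicates were compared region by region with a two-sided Fisher exact test of 5hmC against other calls, in regions with at least 10 calls in both, with Benjamini-Hochberg adjustment over all merged regions tested. The test takes calls as independent and compares 2 libraries, so that its p-values are too small where several calls come from 1 read. Of 30 3' UTR regions tested between replicates 2 and 3, none passed an adjusted p of 0.05, and 2 had an unadjusted p below it. Over all 732 merged regions tested, 1.23% were called. Between replicates 1 and 2 none of 28 was called (2 unadjusted), beside 1.18% of 591, and between replicates 1 and 3 none of 13 (0 unadjusted), beside 1.2% of 417. The 2 regions between replicates 2 and 3 lay in Dlgap4, which encodes a protein of the postsynaptic density, with 58.8% of 17 calls against 16.7% of 48 (Fisher exact test, adjusted p = 0.0958), and in Srebf2 (adjusted p = 0.369). Between replicates 1 and 2 they lay in Srebf2, with 16.7% of 108 calls against 42.0% of 50 (Fisher exact test, adjusted p = 0.0616), and in Slc12a5. Slc12a5 had 7.76% of 116 calls against 20.4% of 108 (Fisher exact test, adjusted p = 0.151). With a minimum of 5 calls, 66 3' UTR regions were tested and 1 was called, beside 0.105% of 1902 merged regions. In Tmem181a, whose region is shared with Dynlt1a, 5.26% of 19 calls were 5hmC in replicate 2 and 100% of 7 in replicate 3 (Fisher exact test, adjusted p = 0.0116). Replicate 3 had no peak there and 1 call at each of 7 CpGs, which a single read could give, so that no difference between the replicates is drawn from it. The median difference between replicates 2 and 3, without sign, was 13.1 percentage points in the 30 regions and 13.3 in all 732. Across the 30 regions, which share libraries and CpG content, Spearman's rho of the shares of replicates 2 and 3 was 0.372.

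A replicate without a peak in a region can still hold reads there, and their calls took no part in calling that peak. In replicate 1, 135 of the 407 3' UTR regions without a peak of its own had a call. In replicate 2 these were 41 of 146 and in replicate 3 71 of 267. Of their calls, 26.7% of 898, 32.7% of 254 and 37.4% of 361 were 5hmC in replicates 1, 2 and 3, a mean of 32.3% ± 5.35 (SD, n = 3). The same share was 26.3% ± 0.472 in coding exon regions and 35.1% ± 2.00 in intron regions. These reads came from the same immunoprecipitates and so are enriched DNA as well. Within a replicate, they lie in regions other than those with its own peaks, so the comparison below is not of the same places. The share was above that in the replicate's own peaks in 3 of 3 replicates, but in 2 of 3 without Rtn4r and Slc12a5, since the own peaks of replicate 1 then had 28.0%. In introns it was 34.3%, 33.7% and 37.4%, beside 28.9%, 34.9% and 31.7% in the own peaks, and so was higher in 2 of 3 as well. In replicate 3 of the 3' UTR regions its interval of 32.4 to 42.6% lay above that of its own peaks (26.7 to 31.3%).

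Every deposited call is marked as forward strand, which is the coding strand of 216 regions and the template strand of 211. The methods name no option that sums the strands when calls are counted per CpG, and why no call is marked as reverse strand is not given in the sources used here. Of the CpGs within 25 bp of the summits of peaks with 3 reads, 18.6% of 145, 10.6% of 3605 and 11.7% of 2533 in replicates 1, 2 and 3 were covered by 3 or more reads, with or without a usable call, and the median was 2 in each. The comparison that follows rests on the mark. In replicates 2 and 3 both kinds of gene gave like values, with 29.4% and 30.2% 5hmC for genes on the forward strand and 27.3% and 28.5% for those on the reverse strand. In replicate 1 the values were 17.4% (12 regions, 321 calls) and 40.7% (8 regions, 118 calls). The mean difference (forward minus reverse) was −6.47 ± 14.5 percentage points (SD, n = 3, two-sided exact sign-flip permutation test, p = 1.0), and 1.92 without replicate 1. Coding exon regions differed by 0.29 ± 0.836 and intron regions by −3.90 ± 3.07 (SD, n = 3, exact test, p = 0.75 and 0.25).

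The bases beside the CpG were examined over the same calls. In replicate 2 the 5hmC share was highest after A (34.3%) and lowest after T (24.2%). In replicate 3 it was nearly level after A and C (31.2% and 30.6%), and lowest, again nearly level, after T and G (26.5% and 26.6%). Before C the share was 31.2% and 33.9% in replicates 2 and 3, and before A 26.6% and 23.8%. Replicate 1 had another order, with 41.3% before A (63 calls) and 29.4% after G (119 calls). Among the bases before the CpG, A also gave the highest share in coding exon regions of replicates 2 and 3 (30.8% and 33.1%). The same held in intron regions (39.0% and 36.3%), where CpGs before C had 39.7% and 39.2%. CpGs with no other within 25 bp had 32.9%, 27.6% and 26.5% 5hmC in replicates 1, 2 and 3. Those with 1 other had 34.1%, 30% and 31.0%, and those with 2 or more 17.6%, 27.8% and 29.1%. CpGs with 1 neighbour were the highest of the 3 kinds in each replicate, and in replicates 2 and 3 the intervals of all 3 kinds overlapped.

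Of the CpGs in the 427 regions, 3682 of 4459 (82.6%) had a call in some replicate, but only 167 had one in all 3. Replicates 1, 2 and 3 reached 25.2%, 57.0% and 33.9% of them with 1412, 3579 and 2001 calls. At least 1 5hmC call was made at 1575 CpGs. Among the 861 CpGs with 3 or more calls over all replicates, 22 were called 5hmC in every read and 330 in none.

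Of 19299 protein-coding genes with a base eligible under the rule, 394 (2.04%) held a 3' UTR region. Counting each region once, 355 genes held 1 region, 26 held 2, 5 held 3 and 1 held 5. Dclk1, a doublecortin-like kinase that binds microtubules, held the 5 regions, of which 4 lie in an intron of its canonical transcript and 1 in that transcript's 3' UTR. Each had a peak in 1 replicate only, with folds of 2.84 to 4.72, and together 19 of 43 calls were 5hmC. Mtcl1, which crosslinks microtubules in Purkinje cells, held 3 regions with 26 of 65 calls. St8sia5, a sialyltransferase of ganglioside synthesis, held 3 with 15 of 50, and 6430548M08Rik 3 with 12 of 30. The share was thus 30% or more in each of these genes, while the 2 Nfix regions together had 14.0% of 264 calls.

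Genes were also grouped by lists of cell type markers and gene families. The 5 cell type lists show in which genes the regions lie and say nothing of the cells they came from. Of 30 granule cell genes 4 held a region (13.3%, beside 2.04% of all genes), namely Nfix, Nfia, Neurod2 and Fat2. In Nfia, a transcription factor related to Nfix, 5 of 16 calls were 5hmC, and in Neurod2, a neuronal basic helix-loop-helix factor, 2 of 15. In Fat2, a giant cadherin of granule cells, both of 2 calls were. Of 31 Purkinje cell genes only Ebf1 held one (3.23%), of 22 astrocyte and Bergmann glia genes Slc1a2 (4.55%), of 22 oligodendrocyte genes Mbp (4.55%), and of 19 cerebellar interneuron genes none. In Mbp, the myelin basic protein gene, 0 of 9 calls were 5hmC, which allows a share of up to 33.3%, and in the glutamate transporter gene Slc1a2 0 of 5, which allows up to 60%. With 1 to 4 genes a list, these shares are coarse.

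Among the families, RNA-binding and splicing genes had 9 of 108 with a region (8.33%), including Celf2, Celf4, Msi2 and Nova1, which regulate splicing or translation in neurons. Potassium channel genes had 5 of 91 (5.49%), GABA and glycine receptor genes 1 of 21, kinase and phosphatase signalling genes 12 of 263 (4.56%), small GTPase regulators 7 of 155 (4.52%), solute carriers 13 of 356 (3.65%), chromatin regulators 4 of 111 (3.6%), homeobox and patterning factors 6 of 195 (3.08%), axon guidance genes 2 of 70 (2.86%) and cadherins 2 of 98 (2.04%). Calcium channel genes (31) and glutamate receptor genes (26) had none. Zinc finger protein genes had 5 of 470 (1.06%), olfactory and vomeronasal receptors 1 of 1299 (0.0770%), and the list of ribosomal protein genes 2 of 156 (1.28%), of which Rps6ka2 is a kinase gene caught by its name. The lists differ in 3' UTR length, which was not taken into account. Over the families with more than 100 calls, the 5hmC share ranged from 19.4% in solute carriers (387 calls) to 30% in small GTPase regulators (160 calls). These values lean on single genes. Without Slc12a5, which holds 226 of the calls, solute carriers had 27.3% (161 calls), and without Nfix the homeobox and patterning factors moved from 20.2% (357 calls) to 37.6% (93 calls).

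The distance from starts is the only threshold of the rule. Just inside it lay the regions of Nudt16 (1010 bp from a start, fold 2.87, 7 of 15 calls 5hmC), Nedd4l (1025 bp, fold 4.79, no call) and Tarbp2 (1074 bp, fold 3.83, 0 of 2). Just outside lay those of Zdhhc1 (974 bp, fold 3.83, 36 of 104), Setd1a (932 bp, fold 2.89, 4 of 9) and Jph4 (786 bp, fold 4.77, 5 of 12). In all, 17 regions in 3' UTRs were left out because a start lay within 1 kb, and 28.7% of their 380 calls were 5hmC.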

How the data were processed

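Narrow peaks and per-CpG base-calls of 3 hMeDIP reactions were used, each file taken with its sample's label. Per the methods, the authors base-called with Dorado 0.5.1, aligned to mm39 (GRCm39) with minimap2 2.24 and called peaks per replicate with MACS2 2.2.6 against an untreated library. Removal of blacklisted peaks is described there and was not checked here. The deposited lists give a fold enrichment (ratio), −log10 p- and q-values, a display score and the summit offset. The submitters' processing notes also name SAMtools. With modkit 0.2.8 the authors made the counts of 5hmC, 5mC and C calls per CpG, leaving out masked repeats, and the deposited percent values are calls of a state over valid calls.

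Peaks were merged and placed with GENCODE M39. A share is the summed calls of a state over the calls of 3 states, with no minimum per CpG, since 49.6%, 63.1% and 62.9% of called CpGs in 3' UTR peaks of replicates 1, 2 and 3 had 1 call. Differences were taken within replicates and tested with exact sign flips, and regions with Fisher's exact test. For 0 of n calls the limit given is 3 of n. Regions were named by peaks in all replicates, the 8 highest mean folds among 2-replicate regions and 5 highest folds among 1-replicate regions, the 6 highest and lowest 5hmC shares among the 54 regions with 30 or more calls, 4 of the genes with most regions, and membership of the cell type lists, and 1 region that the rule names is not reported here. The regions, gene lists and tests were chosen with earlier results of these data known. Alternatives are in the closing section. The functions were tested on simulated data and run in Python 3.11.15 with pandas 2.3.3, numpy 2.4.6, pysam 0.24.0, scipy 1.17.1 and matplotlib 3.10.9.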

Additional observations from a re-analysis of the deposited data

Results flagged for a closer look

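Chromosome X lies outside the rule and was not used in any comparison. Placed in the same way, 2 of its 46 merged regions lay in 3' UTRs. The region of Phka2 had a peak in replicate 3 (fold 2.89) with 3 of 6 calls as 5hmC, and that of Nlgn4l had peaks in replicates 1 and 2 (highest fold 5.92) with 0 of 1. Together 42.9% of 7 calls were 5hmC. They drew attention as a signal in data outside the comparisons.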

How the results depend on the processing

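Of 188 repeats of 30 results under other settings, 170 stayed within the replicate spread or counting interval, for counts within 1.5 times, or, for differences, kept their sign or moved by less than the spread. The difference from introns kept its sign but moved by more than its spread at 3 calls per site (−1.10), as a mean of single sites (−6.77), without regions of very high signal (−7.02) and in regions of low (−1.28) and high CpG density (−2.24, and −0.35 there without Rtn4r and Slc12a5), and so did that from coding exons at high density (−1.72). Requiring a fold enrichment of at least 4 left 83 3' UTR regions in 84 genes. Leaving out 1 replicate gave 175 to 413 regions, 170 to 384 genes and 0.571 to 6.05% of regions with a second peak. The lowest values are those without replicate 2, which has most peaks. With at least 5 calls per site only 1 CpG of the 3' UTR regions was left, that of Klf9 in replicate 2, so that the 5hmC share of 80.0%, the 5mC share of 0.0% and the differences from coding exons (44.4 points) and introns (63.8 points) rest on 5 calls. The strand difference could not be computed there. In regions of low CpG density, a setting chosen after seeing the data, the difference from coding exons was 2.64. With at least 5 calls in each replicate, 2 of 1902 merged regions differed between replicates 2 and 3, against 9 of 732 at 10 calls. At 20 calls 12 of 181 merged regions differed, and 0 of the 7 3' UTR regions among them. For these differences the cause was not tested. Among single regions the share moved beyond its interval in 5, named Srebf2, Map3k4, Nfix, Gins2 and Mier2, each when 1 replicate was left out. The class differences were taken within replicates throughout, so that they are paired by replicate already. Depth limits single regions, with 3 reads at a median summit in replicates 2 and 3.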
